A study of Mus musculus with 4 samples.

Results

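Transcripts of 8 genes that act when vessels sprout and settle were followed through single cells of mouse Achilles tendon: the apelin ligand Apln and its receptor Aplnr, the tip cell gene Esm1, the angiopoietins Angpt1 and Angpt2, their receptors Tek and Tie1, and the phosphatase Ptprb. The 8 genes were taken by symbol, or by gene identifier in the library with an older gene list, from the 27040 genes that the 4 libraries share. All 8 were found, and all 8 had at least 1 unique molecular identifier (UMI, 1 tagged RNA molecule) in every library.

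The study profiled tendon cells by droplet sequencing of transcript 3' ends, with 1 library per group and 5 Achilles tendons pooled into each. The Prox1 eGFP groups were uninjured tendon with no treatment (day 0) and tendon at days 7 and 21 after a procedure that the labels abbreviate B/T and that is not expanded here. A further group, Vegfc CRE, was taken at day 7 after B/T; Vegfc is a growth factor for lymphatic vessels, and the series title names lineage tracing of it. Prox1 is a transcription factor needed for the identity of lymphatic endothelium, eGFP is a fluorescent protein, and Cre is a recombinase whose use in this line, like the strain and age of the mice, is not given in the sources used here. The protocol describes a sort for Prox1-expressing cells, whereas the cell type label reads unsorted, so shares of cells below can be set by a sort.

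With 1 library per group there was no spread between replicates, so no test was made between groups. Levels are given as UMIs per 1000000 UMIs of the same cells (CPM), and all ranges in parentheses are exact 95% intervals that cover counting error only. A gene with at least 10 UMIs over 2 libraries was called higher or lower by size alone, at 2-fold or more, and only where both had at least 30 cells of the class. These calls have no replicate check.

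Apelin is a secreted peptide whose G protein-coupled receptor, Aplnr, sits on endothelial cells of growing veins and capillaries, and apelin itself is known from the tip cells that lead a sprout, as is Esm1, a secreted proteoglycan also called endocan. Angpt1, made by cells around the vessel, activates the receptor tyrosine kinase Tek (Tie2) and keeps vessels quiet, whereas Angpt2, stored and released by endothelial cells, can block Tek in blood vessels and activate it in lymphatic vessels. Tie1 is a related receptor that pairs with Tek, and Ptprb (VE-PTP) is an endothelial phosphatase that removes phosphate from Tek.

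The files held between 717 barcodes (day 0) and 8711 barcodes (Vegfc CRE), and 18834 cells were used, with median UMIs of 7059 to 8503.5 per library. A Prox1 UMI was present in 86.7% of cells at day 21 and 96.8% of cells at day 7, but in 1.15% of Vegfc CRE cells and 8.85% of day 0 cells, so these libraries hold different populations. Cells were clustered without the 8 genes and named from marker lists. Blood endothelial-like cells numbered 676 in Vegfc CRE, 121 at day 21 and 33 at day 7. Lymphatic endothelial-like cells numbered 1915 at day 21 and 991 at day 7, against 8 in Vegfc CRE, too few for a level. Day 0 held 7 blood and 3 lymphatic endothelial-like cells, so no endothelial level is given there; over all 689 cells of that library the 8 genes had between 1 UMI (Esm1) and 34 UMIs (Ptprb). Every marker of the 9-gene endothelial list and of the 10-gene blood endothelial list was detected in the blood endothelial-like cells of the 3 later libraries, and every endothelial marker and all 10 lymphatic markers in the lymphatic endothelial-like cells of day 21 and day 7.

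Promoter sequences of 4 of the 8 genes, Apln, Esm1, Tek and Tie1, were in the RefSeq table of build GRCm38.p6, and they are shown because all 4 genes had their highest level in blood endothelial-like cells. Each run is the 250 bases before the start that RefSeq gives, read 5' to 3' on the gene's strand. Capitals mark AGGAAG or its reverse complement, a form of the site bound by the ETS factor family, which acts on many endothelial genes. Shorter or other forms of that site were not searched.
Apln, chrX:48034854-48035103, minus strand: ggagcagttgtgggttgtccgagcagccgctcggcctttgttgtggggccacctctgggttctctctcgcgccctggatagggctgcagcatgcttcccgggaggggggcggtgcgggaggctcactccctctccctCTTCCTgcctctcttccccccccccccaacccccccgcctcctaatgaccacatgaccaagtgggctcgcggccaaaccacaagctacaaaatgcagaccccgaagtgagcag
Tie1, chr4:118489850-118490099, minus strand: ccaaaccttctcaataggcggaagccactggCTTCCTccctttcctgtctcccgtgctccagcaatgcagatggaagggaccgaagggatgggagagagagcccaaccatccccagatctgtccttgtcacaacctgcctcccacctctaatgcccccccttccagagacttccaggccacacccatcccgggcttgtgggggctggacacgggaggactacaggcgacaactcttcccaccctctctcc
Tek, chr4:94739039-94739288, plus strand: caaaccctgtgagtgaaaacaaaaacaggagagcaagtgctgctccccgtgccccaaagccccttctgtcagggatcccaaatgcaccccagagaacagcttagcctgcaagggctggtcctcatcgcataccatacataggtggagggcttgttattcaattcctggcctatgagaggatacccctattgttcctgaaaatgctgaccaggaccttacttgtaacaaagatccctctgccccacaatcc
Esm1, chr13:113209409-113209658, plus strand: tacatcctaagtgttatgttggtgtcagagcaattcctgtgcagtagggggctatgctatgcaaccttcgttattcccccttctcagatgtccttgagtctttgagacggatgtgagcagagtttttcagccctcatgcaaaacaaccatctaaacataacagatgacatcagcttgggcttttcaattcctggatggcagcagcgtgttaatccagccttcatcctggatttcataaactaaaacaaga
The RefSeq start of Tie1 lies inside the span given for this gene in the next paragraph, so most of its window is within that span, whereas the other 3 windows end where the gene's span begins. The Apln and Tie1 windows held 1 AGGAAG match each and the Tek and Esm1 windows none. Of 32851 promoter windows of the same length, 29.5% hold at least 1 such match on either strand. A window without this match can still hold other forms of the ETS site. None of the 4 windows held the hypoxia core ACGTG, the GATA motif AGATAA or the AP-1 motif TGANTCA, which 16.6%, 9.99% and 6.75% of those windows hold. Guanine and cytosine made up 65.2% of the Apln window, 60.4% of the Tie1 window, 51.2% of the Tek window and 44% of the Esm1 window.

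In mm10 coordinates the genes are spread over 7 chromosomes, with both Tie receptors on chromosome 4. Apln spans chrX:48025146-48034853 and Aplnr spans chr2:85136225-85139923. Esm1 spans chr13:113209659-113218098, inside the span of Gzmk on the other strand, and Gzmk had no UMI in blood endothelial-like cells. Angpt1 spans chr15:42424723-42676977 and overlaps the antisense gene Gm17473. Angpt2 spans chr8:18690263-18741562, inside Mcph1 on the other strand, and Mcph1 had 12.1 CPM at day 21 and 15.2 CPM at day 7 in lymphatic endothelial-like cells. Whether the authors counted by strand is not given in the sources used here, so reads could not be divided between such partners. Tek spans chr4:94739289-94874976, Tie1 spans chr4:118471191-118490061 and Ptprb spans chr10:116275523-116389535.

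Of the 8 genes, 7 had their highest level in a blood or lymphatic endothelial-like class, among classes with at least 30 cells, and only Angpt1 had it elsewhere, in fibroblast-like cells. The plot of levels by cell class shows 3 patterns: Apln, Aplnr and Esm1 nearly absent from lymphatic cells, Tek, Tie1 and Ptprb present in both endothelial classes, and the angiopoietins shared with mural or fibroblast-like cells.

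**Figure D1:**
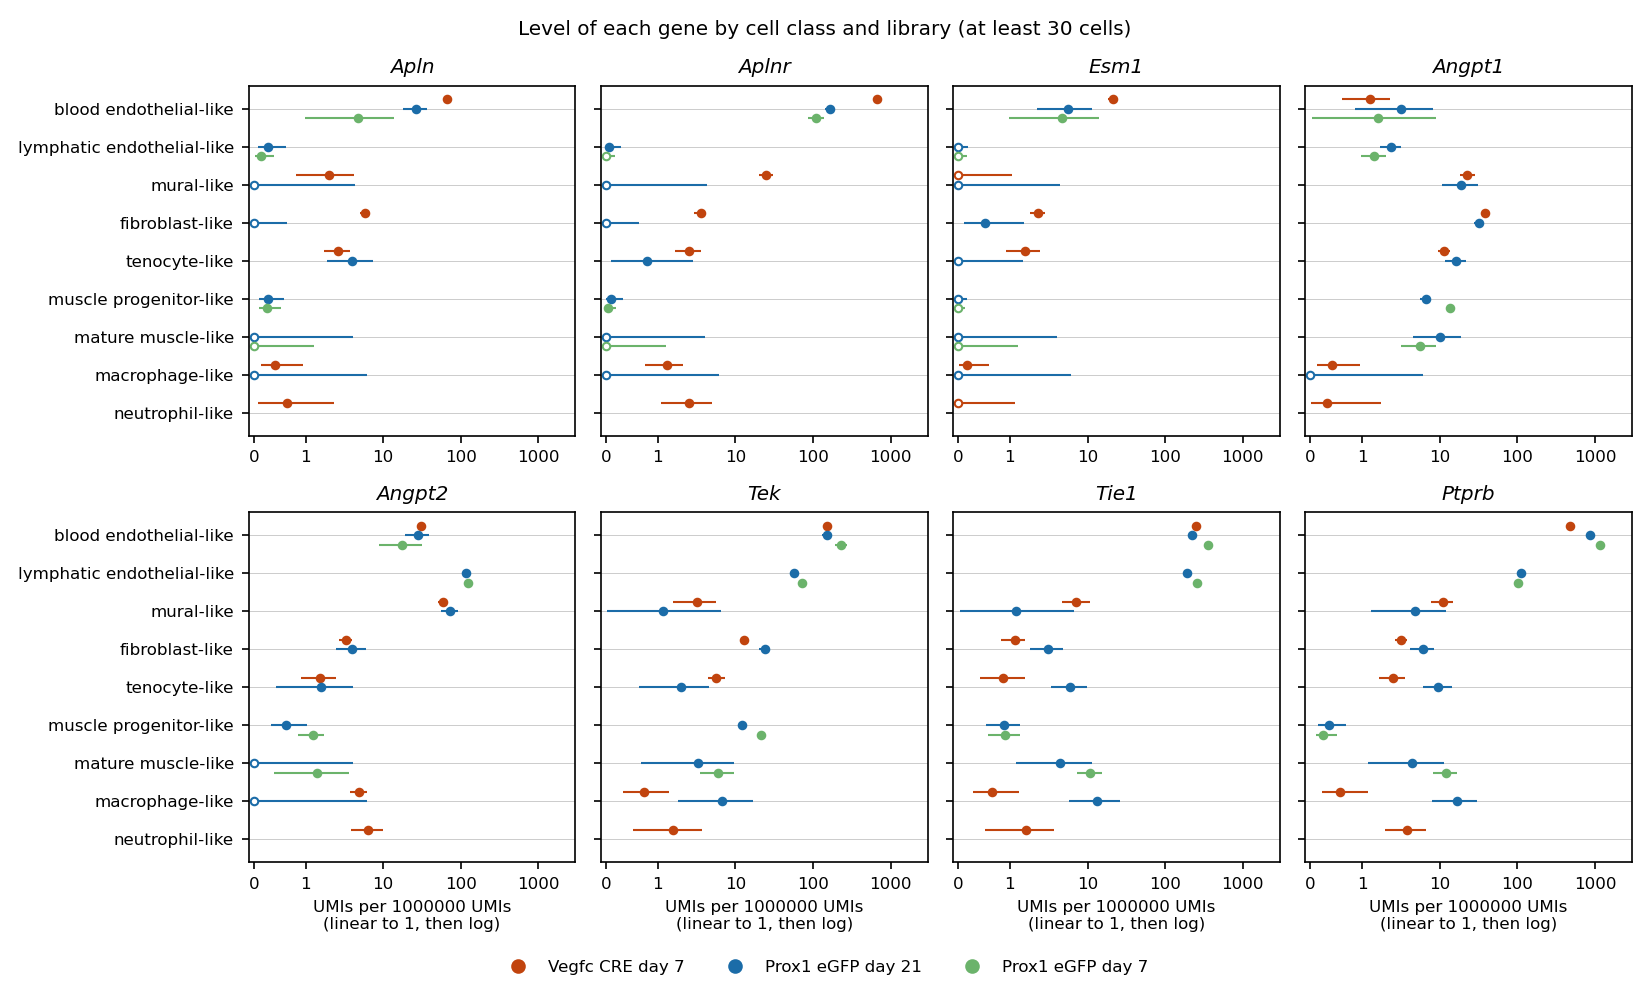
Level of each gene in UMIs per 1000000 UMIs (horizontal axis, linear to 1 and logarithmic above) by cell class (rows) in Vegfc CRE day 7, Prox1 eGFP day 21 and Prox1 eGFP day 7, for groups of at least 30 cells; points are levels, bars exact 95% counting intervals and open points 0 UMIs. Aplnr stood at 662 in Vegfc CRE blood endothelial-like cells and at 0.0536 in day 21 lymphatic endothelial-like cells, while Angpt2 stood at 116 in day 21 lymphatic and 72.4 in day 21 mural-like cells.

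The apelin receptor was highest in blood endothelial-like cells and all but absent from lymphatic ones. Aplnr was at 662 CPM (644 to 680) in Vegfc CRE, 164 CPM (142 to 188) on day 21 and 109 CPM (85.2 to 139) on day 7 in these cells. It had 1 UMI in 1915 lymphatic endothelial-like cells at day 21 and 0 UMIs in 991 at day 7, which allows up to 0.135 CPM there. The receptor was thus at opposite ends of the 2 endothelial classes of the same library. In Vegfc CRE, 82.7% of the 676 blood endothelial-like cells had an Aplnr UMI, against 1.08% of 1209 macrophage-like cells, at median UMIs of 9645.5 and 9242. Macrophage-like cells are taken here and below as a measure of free RNA. That they make none of these genes themselves is an assumption that was not tested. Mural-like cells of Vegfc CRE stood at 25.1 CPM (20.1 to 30.9), all 87 UMIs in 5 of 230 cells, and those of day 21 had no Aplnr UMI in 79 cells, which allows up to 3.56 CPM. At day 7, 13 of 33 cells had a UMI and 5 of them held 56 of the 69 UMIs, so that level rests on few cells.

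The ligand followed its receptor at a lower share of cells. Apln was at 65.8 CPM (60.2 to 71.7) in Vegfc CRE blood endothelial-like cells, 26.1 CPM (18.0 to 36.7) on day 21 and 4.76 CPM (0.982 to 13.9) on day 7, the last from 3 UMIs. A UMI was found in 129 of 676 cells (19.1%, 16.2 to 22.3), 12 of 121 cells and 2 of 33 cells of these libraries, against 0.414% of Vegfc CRE macrophage-like cells. After each cell was thinned to 2000 UMIs the shares were 6.53%, 1.82% and 3.03%. Lymphatic endothelial-like cells had 5 Apln UMIs at day 21, all in 1 cell, and 3 at day 7, in 2 cells. Apln also appeared outside endothelium in Vegfc CRE: fibroblast-like cells were at 5.86 CPM (5.09 to 6.71), in 155 of 1429 cells, and tenocyte-like cells at 2.59 CPM (1.75 to 3.70). Fibroblast-like cells of day 21 had no Apln UMI in 311 cells, which allows up to 0.515 CPM.

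Esm1 was the rarest of the 3 blood endothelial genes by share of cells in Vegfc CRE and at day 21, and at day 7 it was seen in 2 of 33 cells, as was Apln. It was at 21.5 CPM (18.4 to 25.0) in Vegfc CRE, 5.54 CPM (2.23 to 11.4) on day 21 and 4.76 CPM (0.982 to 13.9) on day 7 in blood endothelial-like cells, from 171, 7 and 3 UMIs. In Vegfc CRE it was seen in 32 of 676 cells, and 5 cells held 94 of the 171 UMIs. Lymphatic endothelial-like cells had no Esm1 UMI at either time, which allows up to 0.161 CPM at day 21. Vegfc CRE fibroblast-like cells had 81 Esm1 UMIs (2.29 CPM), 53 of them in 5 cells.

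Angpt1, the Tek-activating ligand, was the lowest of the 8 genes in blood endothelial-like cells of each library. Its level was 38.3 CPM (36.3 to 40.4) in fibroblast-like cells of Vegfc CRE and 32.3 CPM (27.8 to 37.2) in those of day 21, with a UMI in 46.0% and 33.8% of cells. Mural-like cells, the pericytes and smooth muscle that wrap vessels, were at 22.8 CPM (18.0 to 28.4) in Vegfc CRE and 18.98 CPM (10.9 to 30.8) at day 21. Tenocyte-like cells were at 11.4 CPM in Vegfc CRE and 16.3 CPM at day 21. These 3 stromal classes therefore all carried the ligand in both libraries that hold them. Blood endothelial-like cells had 1.26 CPM in Vegfc CRE, 3.17 CPM at day 21 and 1.59 CPM at day 7, and lymphatic endothelial-like cells had 2.36 CPM at day 21 and 1.44 CPM at day 7.

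Angpt2, the endothelial counterpart, was highest in lymphatic endothelial-like cells. Day 21 cells had 116 CPM (112 to 121), and day 7 cells had 126 CPM (121 to 130.3). A UMI was found in 37.5% of these cells at day 21 and 54.8% at day 7, at median depths of 8772 and 18921 UMIs; thinned to 2000 UMIs the shares were 15.7% and 16.5%. With the highest doublet-scoring cells removed, the highest Angpt2 level was instead 135 CPM, in the 173 cells of day 21 that this clustering named blood endothelial-like. Of these, 70 lay in a cluster named on 3 blood markers (Sox18, Nos3 and Kdr) and led by Cldn11, Zic2 and Sbspon. Those genes also lead subcluster 7, given below as collecting-type lymphatic, so the 135 CPM is not read as a blood endothelial level. Mural-like cells came next, at 58.5 CPM (50.7 to 67.1) in Vegfc CRE and 72.4 CPM (55.4 to 93.0) at day 21, with a UMI in 42.2% and 45.6% of cells. Blood endothelial-like cells were lower, at 31.0 CPM (27.2 to 35.1) in Vegfc CRE, 27.7 CPM (19.3 to 38.5) on day 21 and 17.5 CPM (8.71 to 31.2) on day 7. Macrophage-like cells of Vegfc CRE had 4.86 CPM (3.70 to 6.26), in 4.38% of cells, so the fibroblast-like level of 3.28 CPM in that library was not above this background.

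Tek, the angiopoietin receptor, was at 152 CPM (143 to 161) in blood endothelial-like cells of Vegfc CRE, 153 CPM (132 to 176) on day 21 and 230.1 CPM (194 to 271) on day 7. Lymphatic endothelial-like cells had 57.5 CPM (54.1 to 61.1) on day 21 and 72.1 CPM (68.6 to 75.7) on day 7. Tek was also present outside endothelium: fibroblast-like cells had 12.8 CPM (11.6 to 14.0) in Vegfc CRE and 24.0 CPM (20.2 to 28.4) at day 21, and muscle progenitor-like cells had 12.3 CPM (10.9 to 13.8) on day 21 and 21.4 CPM (19.7 to 23.2) on day 7. A Tek UMI was found in 18.3% of the Vegfc CRE fibroblast-like cells against 0.662% of its macrophage-like cells, at medians of 23121 and 9242 UMIs; thinned, these shares were 3.63% and 0.0842%. Mural-like cells carried little of the receptor, 3.17 CPM in Vegfc CRE and 1.19 CPM at day 21.

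Tie1, the partner receptor, was spread most evenly over the endothelial classes. Blood endothelial-like cells had 249 CPM (238 to 260) in Vegfc CRE, 220.2 CPM (195 to 248) on day 21 and 360.2 CPM (315 to 410.3) on day 7. Lymphatic endothelial-like cells had 193 CPM (187 to 199) on day 21 and 255 CPM (248 to 262) on day 7. Outside the endothelium its highest level was 13.3 CPM in macrophage-like cells at day 21, from 8 UMIs in 4 cells. In muscle progenitor-like cells Tie1 was at 0.887 CPM at day 21 and 0.907 CPM at day 7, where Tek was seen in 7.53% and 14.4% of cells.

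Ptprb, the phosphatase that acts on Tek, was chiefly a blood endothelial transcript. Its level was 479 CPM (464 to 495) in Vegfc CRE, 869 CPM (818 to 922) on day 21 and 1150.5 CPM (1068 to 1237) on day 7 in blood endothelial-like cells, where it was detected in 89.1%, 94.2% and 100% of cells. Lymphatic endothelial-like cells had 112 CPM (107 to 117) on day 21 and 101 CPM (97.3 to 106) on day 7. The 3 blood endothelial levels did not overlap in their counting intervals, which cover counting error only and no spread between libraries. Those libraries also filled the blood endothelial subclusters unequally, as given below, and the part of this in the levels was not tested. Each of the 3 levels lay above both lymphatic levels.

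Set side by side within a library, the 2 endothelial classes differed for most of the genes; this comparison was added after the levels had been seen. At day 21 the ratio of blood to lymphatic cells was 3060 (543 to 121440) for Aplnr, from 207 UMIs against 1 UMI, and 97.6 (37.8 to 320.1) for Apln, from 33 UMIs against 5. Ptprb was 7.76-fold higher (7.21 to 8.36) and Tek 2.66-fold higher (2.27 to 3.10) in the blood cells, whereas Angpt2 was 4.20-fold lower (3.01 to 6.05) there. Tie1 had a ratio of 1.14 (1.01 to 1.29). Of the 7 genes with 10 UMIs, 4 were thus at least 2-fold higher and 1 lower in blood cells, where 26.7% of 12875 genes were at least 2-fold apart, 15.8% higher and 10.9% lower. At day 7 the same comparison gave Aplnr at least 809-fold higher against a floor of 3 UMIs over the lymphatic cells, Ptprb 11.3-fold higher (10.4 to 12.3), Tek 3.19-fold higher (2.67 to 3.79) and Angpt2 7.19-fold lower (4.01 to 14.4), with 30.4% of 13073 genes 2-fold apart, 21.2% higher and 9.23% lower. A Prox1 UMI was present in 28.1% of the blood endothelial-like cells at day 21 and 84.8% at day 7, against 2.81% in Vegfc CRE, and in 8.86% of the mural-like cells of day 21. The part of this in the ratios was not tested.

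Blood endothelial-like cells fell into subclusters that also differed in these genes. Subcluster 6 carried all 10 capillary-type blood markers (Timp4, Car4, Rgcc and others). Subcluster 9 carried venous-type markers (Vwf, Ackr1, Selp) with Cytl1 and Mgp. Subcluster 3 carried Selp, Sele and Ackr1 but its leading genes included S100a8 and S100a9, so it is left unnamed; Apln was itself among its leading genes, although no member entered the clustering. Subcluster 10, with 40 cells of Vegfc CRE, 8 of day 21 and 2 of day 7, carried all 10 mural markers beside 9 capillary-type blood markers. Subcluster 8 carried all 7 muscle progenitor markers and held 49 of the 1915 lymphatic endothelial-like cells of day 21 and 54 of the 991 of day 7. With both left out, which was tried after the values were seen, the endothelial classes had the same number of genes past 2-fold in each comparison given below. Levels below are over all cells of a subcluster, a few of which lay in other classes. The libraries filled them unequally: subcluster 3 held 472 of 676 Vegfc CRE cells, 24 of 121 day 21 cells and 3 of 33 day 7 cells, and subcluster 9 held 16, 36 and 24 of them. Of the 504 cells of subcluster 3, 472 came from Vegfc CRE, so it may be that library rather than a type. Subcluster 3 at day 21 had fewer than the planned minimum of 30 cells, as had subcluster 9 in Vegfc CRE and at day 7. Their levels are given all the same.

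Apln set subcluster 3 apart from subclusters 6 and 9. In Vegfc CRE it was at 75.7 CPM (68.8 to 83.0) in subcluster 3, 10.1 CPM (5.05 to 18.1) in subcluster 6 and 7.95 CPM, from 1 UMI, in subcluster 9. At day 21 the levels were 69.4 CPM (45.7 to 101) in subcluster 3, from 7 of 25 cells, 6.19 CPM (0.750 to 22.4) in subcluster 6 and 3.27 CPM, from 1 UMI, in subcluster 9. At this resolution subcluster 3 thus had the most Apln of these 3 in both libraries, and the intervals of its Apln levels overlapped. Its day 21 level rests on those 7 cells, and its 25 cells there are under the planned minimum of 30. Of day 21 subclusters with at least 30 cells, subcluster 6 had the highest Apln. Subcluster 10, with its mural markers, is not ranked here. Leaving it out lowered Apln in cluster 16 of Vegfc CRE, as given below. With the endothelial cells clustered at resolution 1.0 instead, a venous-type subcluster led by Cytl1, Ackr1 and Vwf held 44 day 21 cells. Apln was at 27.0 CPM there at day 21, against 3.27 CPM in subcluster 9. The low Apln of the Vwf and Cytl1 subcluster at day 21 therefore depends on resolution. Aplnr did not follow the order of Apln over subclusters 3, 6 and 9. In Vegfc CRE it was at 688 CPM in each of subclusters 3 and 6, against 119 CPM (66.8 to 197) in subcluster 9. At day 21 it was at 200.4 CPM (158 to 250.1) in subcluster 3, 195 CPM (150 to 249) in subcluster 6 and 55.5 CPM (32.3 to 88.9) in subcluster 9. Receptor level was therefore lowest in the Vwf and Cytl1 subcluster in each library. It was lower at day 21 than in Vegfc CRE in subclusters 3 and 6, while the intervals of the libraries overlapped in subcluster 9.

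Esm1 was at 26.0 CPM (22.1 to 30.5) in subcluster 3 and 3.68 CPM (1.00 to 9.42) in subcluster 6 of Vegfc CRE, but at 2.57 CPM, from 1 UMI, in subcluster 3 and 18.6 CPM (6.81 to 40.4), from 6 UMIs in 4 cells, in subcluster 6 of day 21. Its place therefore differed between the libraries, on few UMIs at day 21, and subcluster 9 had no Esm1 UMI in any of the 3 libraries. Ptprb ran the other way from Apln. It was at 408 CPM (392 to 425) in subcluster 3, 786 CPM (734 to 840) in subcluster 6 and 1559 CPM (1348 to 1793) in subcluster 9 of Vegfc CRE, and at 655 CPM, 928 CPM and 1309 CPM in the same subclusters at day 21. The order of the 3 subclusters was the same in both libraries, and at day 7 subcluster 9 stood at 1203 CPM. Tek was at 145 CPM, 214 CPM and 207 CPM in subclusters 3, 6 and 9 of Vegfc CRE and at 118 CPM, 136 CPM and 258 CPM at day 21.

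**Figure D2:**
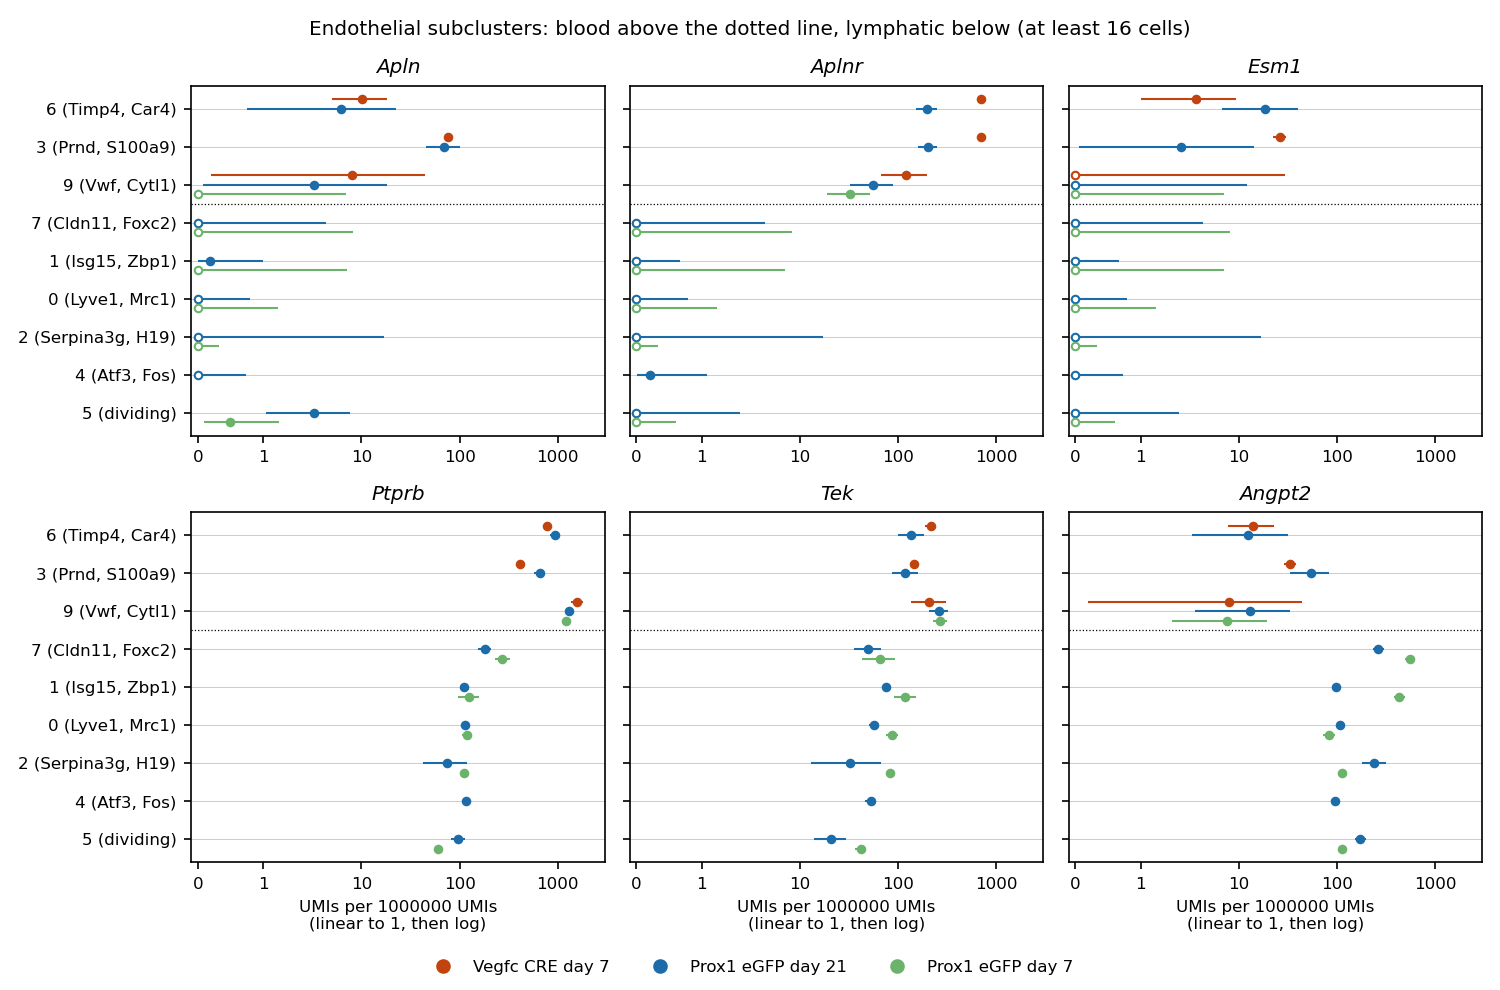
Level of 6 of the genes in UMIs per 1000000 UMIs (horizontal axis, linear to 1 and logarithmic above) in endothelial subclusters with at least 16 cells (rows, named by leading genes or markers), blood above the dotted line and lymphatic below, with exact 95% counting intervals. Ptprb ran from 408 in subcluster 3 to 1559 in subcluster 9 of Vegfc CRE, and Angpt2 stood at 556 in subcluster 7 at day 7.

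Over the first clustering, the blood endothelial-like cells were cluster 9 (led by Vwf, Ackr1 and Selp, with Aplnr among its leading genes) and cluster 16 (led by Timp4 and Fabp4). In Vegfc CRE, cluster 16 against cluster 9 had Esm1 2.60-fold lower (1.57 to 4.58), 9.61 CPM against 25.0 CPM, where 17.6% of 11942 genes were 2-fold apart. Apln was at 40.1 CPM in cluster 16 and 73.1 CPM in cluster 9 there, a ratio of 0.549 (0.421 to 0.706). Angpt1 had 9 UMIs in cluster 16 and 1 UMI in cluster 9, and none was left in cluster 16 without subcluster 10 and its mural markers. Left out as an alternative chosen after seeing the data, subcluster 10 also moved Apln, to 8.97 CPM in 138 cells of cluster 16, 8.20-fold lower (4.28 to 18.0) than in cluster 9, where 19.6% of 11612 genes were 2-fold apart. Esm1 was then 6.30-fold lower (2.41 to 23.4), from 4 UMIs against 154. Of 7 genes tested in this alternative, 1 was higher and 3 lower in cluster 16 of Vegfc CRE, Apln and Esm1 among the lower. At day 21 Apln was 4.07-fold lower (1.55 to 13.5) in cluster 16, at 9.41 CPM against 38.3 CPM, where 21.2% of 8718 genes were 2-fold apart, and 4.74-fold lower (1.47 to 24.4) without subcluster 10, where 23.1% of 8324 genes were. Without subcluster 10, 2 of 6 genes tested were lower at day 21, Apln among them, and none was higher. At day 21 Angpt1 had 0 UMIs in cluster 16 and 4 UMIs in cluster 9, and Esm1 had 6 UMIs and 1 UMI. Apln was thus lower in cluster 16 in both libraries, whereas the Angpt1 UMIs of cluster 16 in Vegfc CRE were in subcluster 10 alone.

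Set against blood endothelial-like cells of Prox1 eGFP at the same day, those of Vegfc CRE had more of the apelin pair and Esm1 and less Ptprb. Apln was 13.8-fold higher (4.70 to 67.2), Aplnr 6.04-fold higher (4.77 to 7.78) and Esm1 4.53-fold higher (1.52 to 22.2) in Vegfc CRE, and Ptprb was 2.40-fold lower (2.21 to 2.60). Of 8 genes tested 3 were higher and 1 lower, where 24.9% of 12103 genes were at least 2-fold apart, 7.06% higher and 17.8% lower. The ratio was 1.78 (0.975 to 3.603) for Angpt2, 0.659 (0.554 to 0.789) for Tek, 0.690 (0.601 to 0.796) for Tie1 and 0.794, from 10 UMIs against 1, for Angpt1, none past 2-fold. Esm1 turned to a log2 ratio of -0.48 in cells thinned to 2000 UMIs, and Tie1 to 0.14. Angpt2 turned too under 4 alternatives, at -0.58 when thinned and -1.17 with the 8 genes among the variable genes. It was at -1.37 with the strict cell filter and -1.70 with the highest doublet-scoring cells removed, so it has no stable direction here. Apart from thinning, each of these named as blood endothelial a cluster led by Cldn11, Zic2 and Sbspon, leading genes of collecting-type lymphatic subcluster 7. That cluster held 16, 16 and 18 Prox1 eGFP day 7 cells in the same order and no Vegfc CRE cell. The part of this in the turns was not tested. The median log2 ratio was 0.25 over the 8 genes and -0.29 over all genes tested. TMM scaling, which equalises the bulk of genes, moved all log2 ratios up by 0.28: Angpt2 then passed 2-fold higher (log2 ratio 1.10), Ptprb stood just inside 2-fold (-0.99), and the share of higher genes among those called became 47.1%, against 28.4% before.

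These libraries differ in more than the line of mice. Of the Vegfc CRE cells 69.8% lay in subcluster 3 and 2.37% in subcluster 9, whereas 72.7% of the day 7 Prox1 eGFP cells lay in subcluster 9, and only 33 cells stood on that side. Within subcluster 9, with 16 Vegfc CRE and 28 Prox1 eGFP cells and so too few for a call, Aplnr was at 119 CPM against 32.2 CPM and Ptprb at 1559 CPM against 1203 CPM. The 6 neutrophil markers summed to 276 CPM in Vegfc CRE and were all at 0 in Prox1 eGFP day 7; S100a8 and S100a9 were at 97.9 CPM and 159 CPM in these Vegfc CRE cells, against 121 CPM each in its macrophage-like cells. Without cells holding either transcript, an alternative chosen after seeing the data, 4 genes were higher and 1 lower. The share of all genes past 2-fold was not computed for that alternative, so the count is not read as a result. The 9 fibroblast markers summed to 372 CPM in Vegfc CRE and 129 CPM in Prox1 eGFP, with Clec3b, Dpt, Lum and Pdgfra at 0 in Prox1 eGFP, and the 10 mural markers to 825 CPM and 873 CPM. Of 10 genes induced by tissue dissociation 8 were lower and 1 higher in Vegfc CRE, among them Fos at 364 CPM against 2028 CPM and Egr1 at 165 CPM against 768 CPM. The part of these differences in the ratios of the 8 genes was not tested.

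Between days 21 and 7 of Prox1 eGFP, blood endothelial-like cells passed 2-fold for 1 of 7 genes tested, Apln, which was 5.49-fold higher (1.72 to 28.0) at day 21, from 33 UMIs against 3. Over all 9885 genes 19.9% were at least 2-fold apart, 7.24% higher and 12.7% lower. Aplnr had a ratio of 1.497 (1.13 to 1.996), Angpt2 of 1.59 (0.788 to 3.47) and Esm1 of 1.16 (0.266 to 6.98). Tek, Tie1 and Ptprb were lower by less than 2-fold, with ratios of 0.664 (0.533 to 0.830), 0.611 (0.511 to 0.732) and 0.755 (0.687 to 0.831), although Tie1 was at a log2 ratio of 0.10 in cells thinned to 2000 UMIs. The median log2 ratio was 0.22 over the 7 genes and -0.15 over all. TMM scaling moved every log2 ratio up by 0.15 and the share of higher genes among those called to 52.3%, against 36.3%. At day 21 these cells held 1760 CPM of the 9 fibroblast markers, against 129 CPM at day 7, and 7 of 9 proliferation genes tested were lower, with Mki67 at 2.38 CPM against 87.3 CPM. Subcluster 9 held 29.8% of the day 21 cells and 72.7% of the day 7 cells, and the part of these values in the ratios was not tested.

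**Figure D3:**
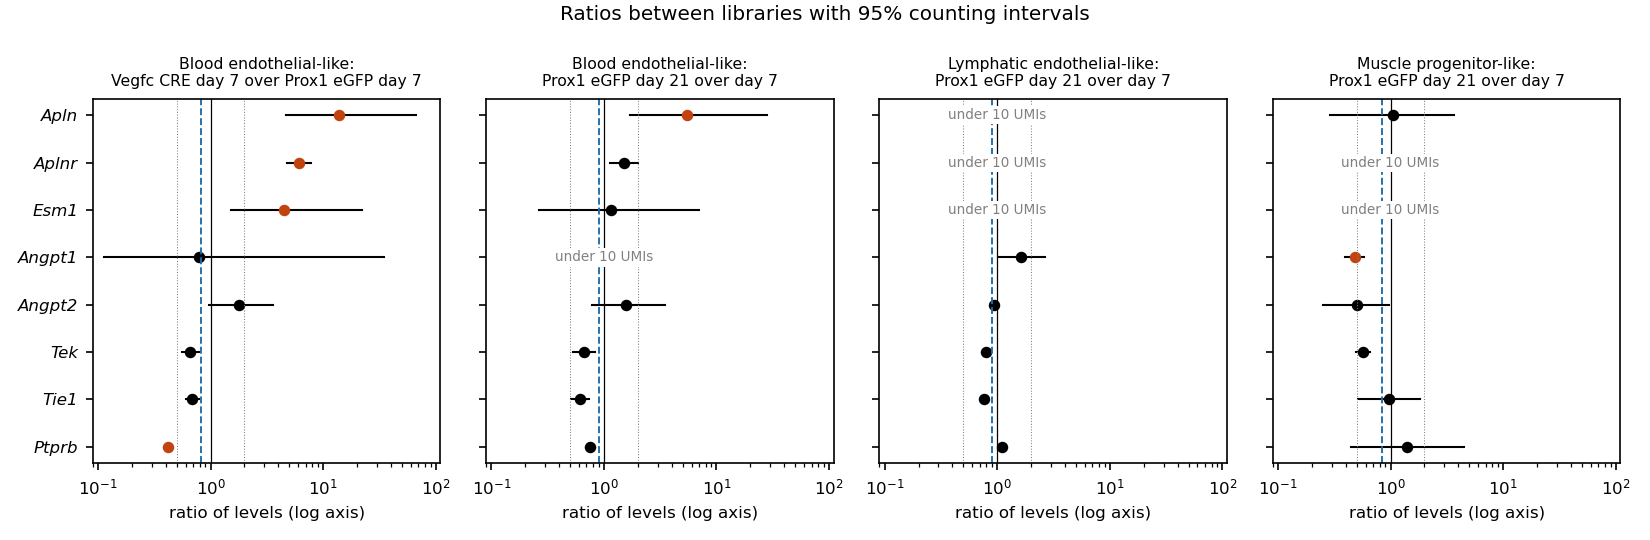
Ratio of levels (horizontal log axis) for each gene in the 4 comparisons, with exact 95% counting intervals, coloured where the ratio is at least 2-fold; dotted lines mark 2-fold, the dashed line the median of all genes tested, and genes under 10 UMIs are written as such. Apln, Aplnr and Esm1 lie to the right in Vegfc CRE blood endothelial-like cells, at 13.8, 6.04 and 4.53, and no gene passes 2-fold in lymphatic cells.

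In lymphatic endothelial-like cells none of the 5 genes tested was 2-fold apart between days 21 and 7. Of 13696 genes 11.6% were, 3.77% higher and 7.83% lower. With so few genes, that count is not read as a result about them. Angpt1 had a ratio of 1.63 (1.01 to 2.66), from 44 UMIs against 32, Ptprb of 1.10 (1.04 to 1.17), Tek of 0.798 (0.738 to 0.863) and Tie1 of 0.757 (0.726 to 0.789). The direction of Ptprb turned when dividing clusters were left out (log2 ratio -0.08). Angpt2 had a ratio of 0.928 (0.877 to 0.982), a direction that turned under TMM scaling (log2 ratio 0.05), which moved every log2 ratio up by 0.16 and the share of higher genes among those called to 42.5%, against 32.5%. The median log2 ratio was -0.11 over the 5 genes and -0.17 over all. Of 10 proliferation genes 8 were lower at day 21, with Mki67 at 22.9 CPM against 98.4 CPM, and their part in these ratios was not tested. A Tie1 UMI was found in 77.3% of cells at day 21 and 95.7% at day 7; thinned to 2000 UMIs the shares were 33.0% and 42.3%.

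The 3 lymphatic clusters did not move alike for Angpt2. Cluster 2 carried markers of initial lymphatic capillaries (Lyve1, Reln, Ccl21a), cluster 5 carried Clca3a1, Cldn11 and Foxc2, known from collecting vessels, and cluster 17 was led by dividing-cell genes. Angpt2 was at 121 CPM at day 21 and 142 CPM at day 7 in cluster 2, a ratio of 0.852 (0.783 to 0.926), and at 103 CPM and 124 CPM in cluster 5, a ratio of 0.829 (0.754 to 0.912). In cluster 17 the day 21 level was 153 CPM (134 to 175) and the day 7 level 109 CPM (101 to 117), a ratio of 1.41 (1.21 to 1.64). Ptprb had a ratio of 1.48 (1.19 to 1.82) in cluster 17, 0.940 (0.858 to 1.03) in cluster 2 and 0.975 (0.891 to 1.07) in cluster 5. Tek and Tie1 were lower at day 21 in all 3 clusters, by less than 2-fold, with Tie1 ratios of 0.727, 0.664 and 0.604 in clusters 2, 5 and 17. Angpt1 in cluster 2, at 3.22-fold (0.885 to 17.6) from 13 UMIs against 3, was the 1 gene past 2-fold there, where 8.99% of 12416 genes were; none passed in cluster 5 (10.2% of 12455 genes) or cluster 17 (13.2% of 11461 genes).

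Clusters also differed within a library. Dividing cluster 17 had less Tek than clusters 2 and 5 together, 2.40-fold lower at day 21 (25.1 CPM against 60.2 CPM), where 21.6% of 12566 genes were 2-fold apart, and 2.31-fold lower at day 7 (37.6 CPM against 86.8 CPM), where 21.2% of 12953 genes were. Ptprb was 2.13-fold lower there at day 7 and had a ratio of 0.731 (0.603 to 0.879) at day 21. Angpt1 was 2.96-fold higher (1.49 to 6.20) in cluster 5 than in cluster 2 at day 21 and 6.22-fold higher (1.86 to 32.6) at day 7, where 9.79% of 12404 and 9.82% of 12485 genes were 2-fold apart. These Angpt1 levels were low, 3.92 CPM in cluster 5 against 1.32 CPM in cluster 2 at day 21.

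**Figure D4:**
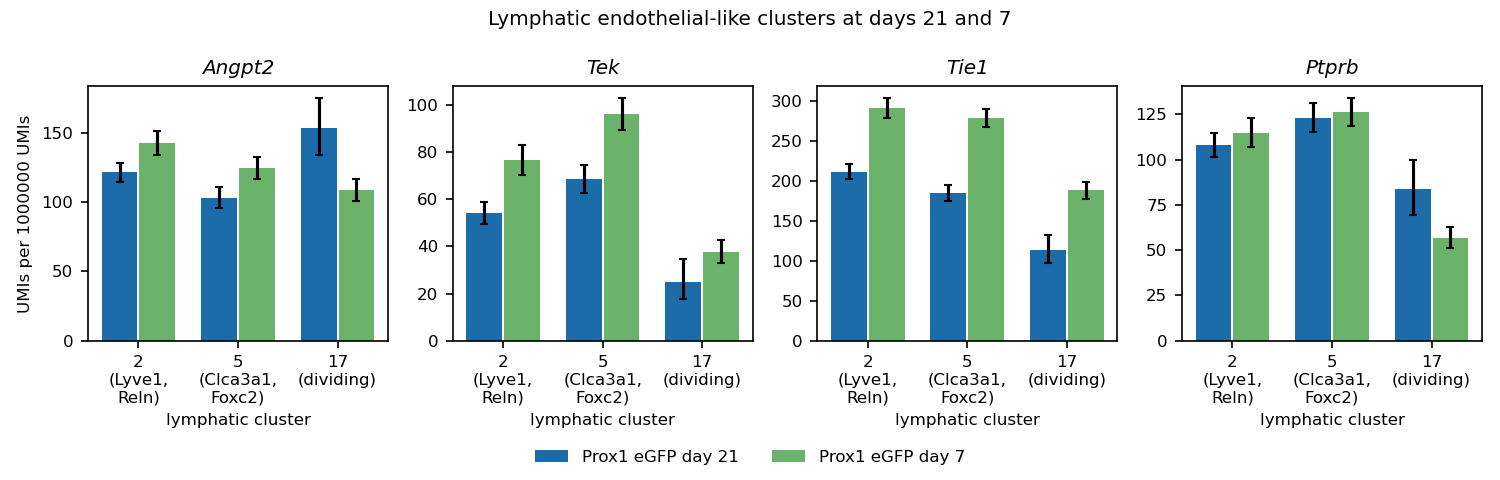
Level in UMIs per 1000000 UMIs (vertical axis) of Angpt2, Tek, Tie1 and Ptprb in lymphatic endothelial-like clusters 2, 5 and 17 at Prox1 eGFP day 21 and day 7, with exact 95% counting intervals. Angpt2 stood at 153 at day 21 and 109 at day 7 in cluster 17, whereas it was lower at day 21 in clusters 2 and 5.

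Within the second clustering, Angpt2 was highest in subcluster 7, named collecting-type lymphatic from Foxc2, Cldn11, Itga9 and Nts. There the day 21 level was 264 CPM (231 to 301) and the day 7 level 556 CPM (489 to 629), 2.10-fold lower at day 21 (1.75 to 2.53), where 15.6% of 8805 genes were 2-fold apart. A UMI was found in 60 of 109 cells at day 21 and 24 of 32 cells at day 7, and 5 cells held 165 of the 250 UMIs of day 7. Subcluster 1 was left unnamed, and its leading genes were the interferon-response genes Zbp1 and Isg15 beside Duoxa2 and others. Its Angpt2 level was 98.8 CPM in 648 cells at day 21 and 433 CPM in 36 cells at day 7. Of the latter, 5 cells held 169 of 225 UMIs. With the endothelial cells clustered at resolution 1.0, the subcluster led by interferon-response genes held 30 day 21 cells. Subcluster 2, which was 551 cells of day 7 and 24 of day 21, had 113 CPM (107 to 119) at day 7. Subcluster 4, led by Atf3 and Fos and made up of 477 day 21 cells and 6 day 7 cells, had 95.4 CPM at day 21. A subcluster mostly of 1 library may be that library rather than a type, and subclusters 2 and 4 are not compared. Subcluster 1 also came mostly from 1 library, with 648 of its 688 cells from day 21, so its 2 levels are not compared either. Apln, Aplnr and Esm1 were at or near 0 in every lymphatic subcluster, the most being 5 Apln UMIs in 1 dividing cell of subcluster 5 at day 21.

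Muscle progenitor-like cells, marked by Pax7 and Myf5 and the largest class of the Prox1 eGFP libraries, carried Angpt1 and Tek. Day 21 cells had 6.65 CPM (5.63 to 7.81) of Angpt1, against 13.8 CPM (12.4 to 15.2) in day 7 cells, 2.07-fold lower (1.71 to 2.51). Of 6 genes tested 1 was lower and none higher, where 14.6% of 13668 genes were at least 2-fold apart, 3.8% higher and 10.8% lower. Tek had a ratio of 0.574 (0.496 to 0.663) and Angpt2, at 0.621 CPM and 1.23 CPM, of 0.503 (0.249 to 0.963). The median log2 ratio was -0.42 over the 6 genes and -0.24 over all. TMM scaling moved every log2 ratio up by 0.23, which left no gene 2-fold apart and raised the share of higher genes among those called to 41.9%, against 26.1%. By cluster, Angpt1 had a ratio of 0.717 (0.520 to 0.970) in cluster 0, where 12.2% of 12996 genes were 2-fold apart, and 0.419 (0.295 to 0.604) in cluster 1, where 10.8% of 12321 genes were, and most cells came from cluster 1 at day 21 (2580 of 3292) and from cluster 0 at day 7 (2941 of 3436). Mature muscle-like cells had 9.97 CPM of Angpt1 at day 21 and 5.60 CPM at day 7, from 9 and 16 UMIs.

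Fibroblast-like cells of Vegfc CRE formed 2 clusters that differed in Tek. Cluster 8, led by Cxcl5 and Il1rl1, had Tek at 2.57 CPM (1.94 to 3.35), against 28.5 CPM (25.7 to 31.4) in cluster 6, led by Pi16 and Clec3b, which is 11.1-fold lower. Esm1 and Ptprb were also more than 2-fold lower in cluster 8, at 0.795 CPM against 4.59 CPM and 1.17 CPM against 6.31 CPM, where 22% of 14328 genes were 2-fold apart and macrophage-like cells stood at 0.165 CPM and 0.576 CPM. Angpt2 was at 1.68 CPM in cluster 8 and 5.73 CPM in cluster 6, and the higher of these lay within the interval of the macrophage-like background, so no difference is read from it. Angpt1 was at 43.6 CPM in cluster 8 and 30.3 CPM in cluster 6, a ratio of 1.44 (1.28 to 1.62), and Apln at 7.20 CPM and 3.80 CPM, a ratio of 1.89 (1.38 to 2.64). At day 21 cluster 6 held 293 of the 311 cells and had Tek at 25.8 CPM (21.7 to 30.5) and Angpt1 at 34.3 CPM (29.6 to 39.6). Cell by cell in Vegfc CRE, a Tek UMI was found in 13.5% (11.02 to 16.4) of the 657 fibroblast-like cells with an Angpt1 UMI and in 22.3% (19.4 to 25.4) of the 772 without, although those with Angpt1 were deeper, at a median of 26561 UMIs against 20056.5. An Apln UMI was found in 15.5% of cells with Angpt1 and 6.87% of cells without, with the same gap in depth. These shares pool clusters 6 and 8, which differ in Tek, Angpt1 and Apln as given above. The part of cluster and depth in them was not tested.

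Co-detection in blood endothelial cells was read within cluster 9 of Vegfc CRE (499 cells). Esm1 was found in 19 of 120 cells with an Apln UMI (15.8%, 9.81 to 23.6) and in 9 of 379 without (2.37%). Apln was found in 42 of 93 cells with an Angpt2 UMI (45.2%, 34.8 to 55.8) and in 78 of 406 without (19.2%). Each share was higher in the cells that held the other transcript, but cells with an Apln UMI had a median of 14708 UMIs against 9318 in those without, and those with Angpt2 12440 against 10156, and the part of depth in these shares was not tested.

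Pathway lists give the setting. Counts of list genes past 2-fold are read against the shares of all genes given above, which were 7.06% higher and 17.8% lower for Vegfc CRE against Prox1 eGFP day 7 in blood endothelial-like cells, 7.24% and 12.7% for day 21 against day 7 in the same class, 3.77% and 7.83% in lymphatic endothelial-like cells, and 3.8% and 10.8% in muscle progenitor-like cells. Of the 16 Tie axis genes (Foxo1, Klf2, Svep1, Nos3, Shc1 and others), Vegfc CRE blood endothelial-like cells had 0 higher and 3 lower of 12 tested (median log2 ratio -0.28, all genes -0.29), among them the flow-induced factor Klf2 at 486 CPM against 1685 CPM and Foxo1, which Tek signalling holds out of the nucleus, at 75.7 CPM against 169.8 CPM. Day 21 against day 7 gave 0 higher and 2 lower of 12 in blood endothelial-like cells, the adaptor Shc1 and the nitric oxide synthase Nos3 (median -0.27, all genes -0.15), and 1 higher and 1 lower of 14 in lymphatic endothelial-like cells (median -0.17, all genes -0.17), with Klf2 at 955 CPM against 447 CPM. In muscle progenitor-like cells 1 of 13 was lower, Svep1, a matrix protein that binds Tie1, at 10.4 CPM against 36.5 CPM. Of the 10 Apelin axis genes, 8 were tested in each comparison, and 2 were lower in Vegfc CRE (Klf2 and the G protein subunit Gnai1), 2 lower in day 21 blood endothelial-like cells (Gnai1 and Nos3), 1 higher in day 21 lymphatic endothelial-like cells (Klf2) and none in muscle progenitor-like cells. The median log2 ratios of this list were -0.35, -0.22, -0.08 and -0.27 in that order, against -0.29, -0.15, -0.17 and -0.24 over all genes. Counts this small in short lists are not read as a result about either list.

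Of 21 tip cell and sprouting genes outside the set, 9 were higher and 1 lower in Vegfc CRE blood endothelial-like cells (median log2 ratio 0.64, all genes -0.29), among them Igfbp3 at 194 CPM against 46.0 CPM, the basement membrane collagen Col4a1 at 2269 CPM against 581 CPM and the chemokine receptor Cxcr4 at 21.8 CPM against 6.35 CPM. At day 21 against day 7, 4 were higher and 1 lower in these cells (median 0.25, all genes -0.15), with Igfbp3 at 239.95 CPM against 46.0 CPM, the netrin receptor Unc5b at 20.6 CPM against 7.93 CPM and the adhesion molecule Mcam lower, at 85.5 CPM against 187 CPM. In lymphatic endothelial-like cells 1 of 20 was lower, Cxcr4 at 0.696 CPM against 2.44 CPM (median -0.43, all genes -0.17), and in muscle progenitor-like cells 4 of 17 were lower, Nid2, Unc5b and Plaur among them. Of the 10 shared endothelial genes, 1 was higher in Vegfc CRE (Cldn5, a tight junction protein, at 609 CPM against 159 CPM), 1 was lower at day 21 in blood endothelial-like cells (Eng, a co-receptor of the transforming growth factor family, at 442 CPM against 941 CPM) and none passed 2-fold in lymphatic or muscle progenitor-like cells. These lists were chosen with earlier results of these data known.

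Across the 25 class and library groups with at least 30 cells, the genes with the most similar levels were named for each of the 8, from 14639 genes and by Pearson's r of log2(CPM + 10). These groups share 4 libraries, and the values are a description. Tie1 was closest to Myct1 (r = 0.995), Nova2 (0.991) and Cdh5 (0.987), and Ptprb to Mmrn2 (0.985), Cyyr1 (0.985) and Robo4 (0.983), each with its highest level in blood endothelial-like cells. Apln was closest to Tacr1 (0.966), Esm1 (0.953) and Prnd (0.948), Esm1 to Lrrc55 (0.963), Apln and Tacr1 (0.934), and Aplnr to B3gnt3 (0.976), Fam167b (0.973) and Rtp3 (0.960). The closest to Tek were Cyb561 (0.956), 9530082P21Rik (0.949) and Lepr (0.949), to Angpt2 Gja4 (0.935), Gm26632 (0.911) and Trmt9b (0.907), and to Angpt1 the stromal genes Ddr2 (0.911), Nnmt (0.894) and Lrp3 (0.891). Among the 8 themselves, r was 0.957 between Tie1 and Ptprb, 0.925 between Tek and Ptprb and 0.916 between Apln and Aplnr.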

How the data were processed

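The deposited files hold counts: UMIs per gene and cell barcode, which the authors obtained using Cell Ranger (version 5.0.1) on build mm10, per the submitters' processing notes. The genes are listed as 32285 rows in 3 libraries and 27998 in Prox1 eGFP day 7, and the 27040 shared genes, holding 99.0% to 99.8% of UMIs, were used. Groups came from the sample titles, with 1 library each, so no replicate number pairs samples.

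Cells with at least 500 genes, 1000 UMIs and under 15% mitochondrial UMIs were kept. Scrublet calls (1 at day 0, 0 at day 7, 85 at day 21 and 101 in Vegfc CRE) were removed; with 0 of 4872 cells called, the caller did not work at day 7. Library pairs shared 2 to 10 barcodes. Cells were clustered with scanpy 1.11.5 and leidenalg 0.10.2 on 2000 variable genes without the 8 members, 30 components, 15 neighbours and resolution 1, giving 26 clusters, 5 of them unnamed, and 11 endothelial subclusters at resolution 0.5. A cluster was named X-like from at least 3 markers, each 2-fold up and in 20% of its cells; a next class with over 80% of the leading share of markers left it unnamed, and the choice not to set both endothelial classes against each other in this was made after the clusters were seen.

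Counts were summed per library and class of at least 30 cells and scaled to CPM. The same minimum was planned for subclusters, but levels of some with fewer cells are given. Intervals are exact: Poisson for levels, Clopper-Pearson for shares and conditional binomial for ratios. A count of 0 allows up to 3 counts. Shares were also read after thinning cells to 2000 UMIs, leaving out shallower cells. The fold rule took the place of a test, since each group has 1 library. The scripts were tested on simulated data. edgeR 4.0.16 (R 4.3.3) gave TMM scaling as an alternative. Other alternatives were cell filters, doublet handling, clustering resolution, a marker gate per cell and single clusters.

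The text names all 8 members, for each list the 3 genes furthest apart by absolute log2 ratio in a comparison, or fewer, for each member the 3 genes most alike, and markers of other cell types beside a result. The members, lists and tests were chosen with earlier results of these data known, and comparisons between clusters, and between blood and lymphatic cells, were added after the values were seen.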

Additional observations from a re-analysis of the deposited data

Results flagged for a closer look

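Ptprb ran in opposite directions between days 21 and 7 in the 2 endothelial classes, with a ratio of 1.10 (1.04 to 1.17) in lymphatic endothelial-like cells and 0.755 (0.687 to 0.831) in blood endothelial-like cells, a gap of 0.547 on the log2 scale. Within the lymphatic class the ratio was 0.940 (0.858 to 1.03) in cluster 2 and 0.975 (0.891 to 1.07) in cluster 5. The higher level at day 21 was thus seen in dividing cluster 17, at 1.48 (1.19 to 1.82), and in the class as a whole. With dividing clusters left out, the direction of the class turned (log2 ratio -0.08), so the opposite directions do not hold without them. Angpt1 had a ratio of 1.63 (1.01 to 2.66) in lymphatic endothelial-like cells and 0.484 (0.398 to 0.586) in muscle progenitor-like cells, a gap of 1.75. Among lymphatic clusters, Angpt2 had a ratio of 0.852 (0.783 to 0.926) in cluster 2 and 1.41 (1.21 to 1.64) in dividing cluster 17, a gap of 0.728, and 0.829 (0.754 to 0.912) in cluster 5, a gap of 0.767 to cluster 17. In each case the single day 21 library moved one way and the other population of the same 2 libraries the other way, and the difference was not tested.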

How the results depend on the processing

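No paired analysis was possible because each group has 1 library. Of 71 alternatives for counts of members past 2-fold, 55 stayed within 1.5 times the reported count and 16 moved. In lymphatic endothelial-like cells the count was 1, against 0, under a marker gate per cell, with cells thinned to 2000 UMIs and in cluster 2 alone. For day 21 against day 7 in blood endothelial-like cells it was 2, against 1, under the marker gate. In muscle progenitor-like cells it was 0, against 1, under TMM scaling, thinning, the mean of per-cell CPM and cluster 0 alone; it was 2 with the strict filter, Scrublet calls kept in, the highest-scoring cells removed, resolution 0.5 or 2.0, members among the variable genes and cluster 1 alone, and 4 under the marker gate. Single-cluster alternatives were chosen after seeing the data. The cause was not tested. Of 372 alternatives for member ratios 316 stayed within the counting interval. The sign turned in 18 of the 372, over 9 of 26 ratios, and in 1 case for a gene past 2-fold: Esm1 in Vegfc CRE against Prox1 eGFP day 7, at a log2 ratio of -0.48 in cells thinned to 2000 UMIs. In that comparison Apln ranged from 1.62 to 4.85, Aplnr from 2.57 to 3.42 and Ptprb from -1.34 to -0.83 (log2). The highest class was endothelial for 7 of 8 members in the 8 alternatives too. Without cells holding Dcn, Tie1 was highest in day 7 lymphatic endothelial-like cells (277 CPM). With the highest-scoring cells removed, Angpt2 was highest in day 21 cells named blood endothelial-like (135 CPM). Of those cells, 70 lay in a cluster led by Cldn11, Zic2 and Sbspon, genes that also lead lymphatic subcluster 7. With 33 blood endothelial-like cells at day 7, Apln and Esm1 rest on 3 UMIs each there, so their ratios have wide intervals.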
